A study of Mus musculus with 10 samples.

Results

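The claudins and tight-junction proteins described here are 9 mouse genes, namely the claudins Cldn3, Cldn4, Cldn6, Cldn7, Cldn9 and Cldn12, occludin (Ocln), tricellulin (Marveld2) and the scaffold ZO-1 (Tjp1). Gene IDs were matched to these names by GRCm38 symbol, and all 9 were found among the 48709 genes of the tables, of which 21695 are protein-coding.

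Claudins are membrane proteins whose extracellular loops join neighbouring epithelial cells into the strands of a tight junction, and the mixture of claudins sets which ions can pass between the cells. Occludin lies along the same strands, tricellulin closes the corners where cells meet in threes, and ZO proteins anchor strands to actin from the cytoplasmic side. In the inner ear, junctions between supporting cells and hair cells keep the potassium-rich endolymph apart from the fluid below the epithelium, and loss of occludin, tricellulin or claudin-9 causes deafness in mice.

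The study tested TRULI, a compound that inhibited the Lats kinases in vitro, on cultured inner-ear epithelium. The paper proposes that the compound activates the coactivator Yap in this way, without excluding other mechanisms. RNA was sequenced to see what the compound does to supporting cells while present and after its removal. Every library came from Lfng-GFP+ supporting cells, sorted by FACS from cultured P21 utricles of Lfng-EGFP mice. DMSO_d5 stands for 5 days in 0.1% DMSO (3 libraries) and TRULI_d5 for 5 days in 10 μM TRULI (3 libraries). DMSO_d10 and TRULI_d10 stand for the same treatments followed by 5 days of recovery (2 libraries each). The solvent DMSO, at 0.1%, was in control and TRULI cultures alike, and all groups carried the reporter. Since the gate read the activity of an Lfng reporter, cells without its fluorescence were not sampled. The methods call the replicates biological, and neither they nor the labels say which libraries came from separate animals. The p-values therefore measure only the spread between these samples, which may be technical.

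For 4 of the 10 libraries the sample label and the name of the deposited table give different conditions. Tables deposited as DMSO_d10 replicates 1 and 2 carry the labels TRULI_d5 replicates 1 and 2. Those deposited as TRULI_d5 replicates 2 and 3 carry the labels DMSO_d10 replicates 1 and 2. The library labelled TRULI_d5 replicate 3 has the same condition in both, with replicate number 1 in its deposited name. All DMSO_d5 and TRULI_d10 libraries match in both. No value was used to decide between the groupings, and which is right was not tested. The paper describes the replicates of each condition, treated and control without withdrawal, as close together on its main axis of variation. A chi-square value for each pair of replicates, divided by its degrees of freedom, rises with difference and with depth. It was 18.06 to 22.29 for pairs of DMSO_d5 libraries and 50.5 for TRULI_d10. By label it was 41.24, 147.15 and 128.12 in TRULI_d5 and 29.78 in DMSO_d10. By deposited name it was 15.28, 26.06 and 29.78 in TRULI_d5 and 41.24 in DMSO_d10. Values are listed by label below, each comparison is given for both groupings, and TRULI_d10 is also set against DMSO_d5, the only pair of complete groups untouched by the conflict. In that last comparison compound and days in culture differ together and cannot be told apart.

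Total counts were 2463872, 3411616 and 3852501 in DMSO_d5 replicates 1 to 3, and 6255149, 3115752 and 3565654 in the libraries labelled TRULI_d5. The libraries labelled DMSO_d10 held 3918989 and 4235355 counts, and the TRULI_d10 libraries 5404033 and 5236704. At these depths 3 counts correspond to between 0.48 and 1.22 CPM (counts scaled to a common library total), a floor that covers counting error only. One mitochondrial ribosomal RNA, mt-Rnr2, separated the libraries into those with a high and those with a low share. It took 16.77%, 26.44% and 16.22% of counts in DMSO_d5, 1.99%, 2.53% and 18.44% in the libraries labelled TRULI_d5, 23.65% and 13.02% in those labelled DMSO_d10, and 1.45% and 2.5% in TRULI_d10. The 4 low libraries were thus both TRULI_d10 libraries and the pair labelled TRULI_d5 replicates 1 and 2. By deposited name they are all 4 libraries of the recovery experiment.

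Supporting-cell identity was checked on 8 markers (Sox2, Lfng, Jag1, Sox9, Otog, Otogl, Gjb2 and Gjb6), of which 0 were at 0 and Otog was the most abundant. Their summed level was 12500, 7520 and 8910 CPM in DMSO_d5, 6410, 3760 and 6120 CPM in the libraries labelled TRULI_d5, 5400 and 5650 CPM in those labelled DMSO_d10, and 5320 and 4760 CPM in TRULI_d10. The 3 DMSO_d5 libraries were the highest. Otog alone stood at 10300, 4910 and 6240 CPM there, against at most 4560 CPM in the others, and made up most of the sum. Lfng, the gene of the sorting reporter, stood at 563, 516 and 506 CPM in DMSO_d5, 63.8, 21.2 and 310 CPM in the libraries labelled TRULI_d5, 548 and 290 CPM in those labelled DMSO_d10, and 100 and 66.1 CPM in TRULI_d10. It was lowest in the same 4 libraries that had little mt-Rnr2.

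Hair-cell markers (Myo7a, Pou4f3, Atoh1, Gfi1, Otof, Ocm, Tmc1 and Myo15, 0 of 8 at 0, Otof the most abundant) summed to 198, 127 and 138 CPM in DMSO_d5, 25.3, 38.4 and 596 CPM in the libraries labelled TRULI_d5, 422 and 145 CPM in those labelled DMSO_d10, and 791 and 119 CPM in TRULI_d10. These levels differed more between replicates of TRULI_d10 than any member did. Markers of blood vessels and macrophages were near 0. The 6 endothelial markers, with Pecam1 the most abundant and Emcn and Cldn5 at 0, summed to at most 2.96 CPM, and the 5 macrophage markers, with Csf1r the most abundant and Adgre1 and C1qa at 0, to at most 0.788 CPM. The 4 markers of dark cells, the vestibular cells that secrete endolymph, summed to between 110 and 187 CPM, from Slc12a2 and Kcnq1, while Kcne1 and Bsnd were at 0.

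The 6 mesenchymal markers, 0 of them at 0 and Col1a2 the most abundant, summed to 18.4, 26.9 and 37.9 CPM in DMSO_d5, 34.6, 35.2 and 33.9 CPM in the libraries labelled TRULI_d5, 64.4 and 36.5 CPM in those labelled DMSO_d10, and 96.3 and 36.0 CPM in TRULI_d10. The 5 Schwann-cell markers, 0 at 0 and Mbp the most abundant, summed to 23.2, 32.9 and 38.2 CPM, 54.0, 59.3 and 32.3 CPM, 36.8 and 34.5 CPM, and 118 and 60.6 CPM in the same order. The 4 melanocyte markers came from Pmel and, at no more than 0.249 CPM, from Dct, with Tyr and Mlana at 0. They summed to 9.59, 8.87 and 11.4 CPM, 4.07, 0.359 and 9.46 CPM, 10.9 and 14.1 CPM, and 7.13 and 0.407 CPM. The part of any of these cells in the results was not tested.

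Levels of different genes were compared per length, as FPKM, which is CPM scaled by TMM and divided by the effective length in kilobases that the tables give. In DMSO_d5 the order of mean FPKM (± SD, n = 3) was Cldn7 at 927 ± 105, Cldn9 at 224 ± 48.8, Ocln at 67.3 ± 32.4, Tjp1 at 47.5 ± 15.6, Cldn6 at 26.0 ± 6.79, Cldn12 at 20.7 ± 3.53, Marveld2 at 16.0 ± 3.05, Cldn3 at 10.3 ± 5.93 and Cldn4 at 4.90 ± 1.96. Cldn7 and Cldn9 stood apart from each other and from the rest, while neighbours in the order from Ocln down to Cldn4 lay within the sum of their SDs. In TRULI_d10 (n = 2) the order was Cldn7 at 2170 ± 552, Cldn6 at 169 ± 21.1, Cldn9 at 78.3 ± 0.509, Cldn4 at 48.9 ± 33, Tjp1 at 46.1 ± 5.37, Cldn3 at 33.8 ± 11.9, Marveld2 at 23.3 ± 10.3, Ocln at 21.9 ± 4.62 and Cldn12 at 4.33 ± 0.884 FPKM. Cldn6 had passed Cldn9, Cldn4 had moved from the bottom to the middle, and the neighbours from Cldn4 to Ocln lay within the sum of their SDs.

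In the groups touched by the conflict the leading gene was again Cldn7. By label it reached 1460 ± 873 FPKM in TRULI_d5 (n = 3) and 627 ± 171 FPKM in DMSO_d10 (n = 2). By deposited name the corresponding means were 606 ± 126 FPKM in TRULI_d5 (n = 3) and 1900 ± 571 FPKM in DMSO_d10 (n = 2). Over all 10 libraries Cldn7 ran from 507 to 2560 FPKM.

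Cldn7 made up most of the claudin RNA in every library. Its share of the FPKM summed over all 33 claudin genes was 77.1%, 75.8% and 67.6% in DMSO_d5, 83.2%, 90.2% and 66.9% in the libraries labelled TRULI_d5, 61.1% and 59.2% in those labelled DMSO_d10, and 80.9% and 87.6% in TRULI_d10. The 6 claudins of this set together held between 94.6% and 98.4%. The ratio of Cldn7 to Cldn9 FPKM lay between 3.08 and 5.11 in the 6 libraries rich in mt-Rnr2. In the libraries labelled TRULI_d5 replicates 1 and 2 the ratio was 15.3 and 40.1, and in TRULI_d10 22.8 and 32.5.

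**Figure D1:**
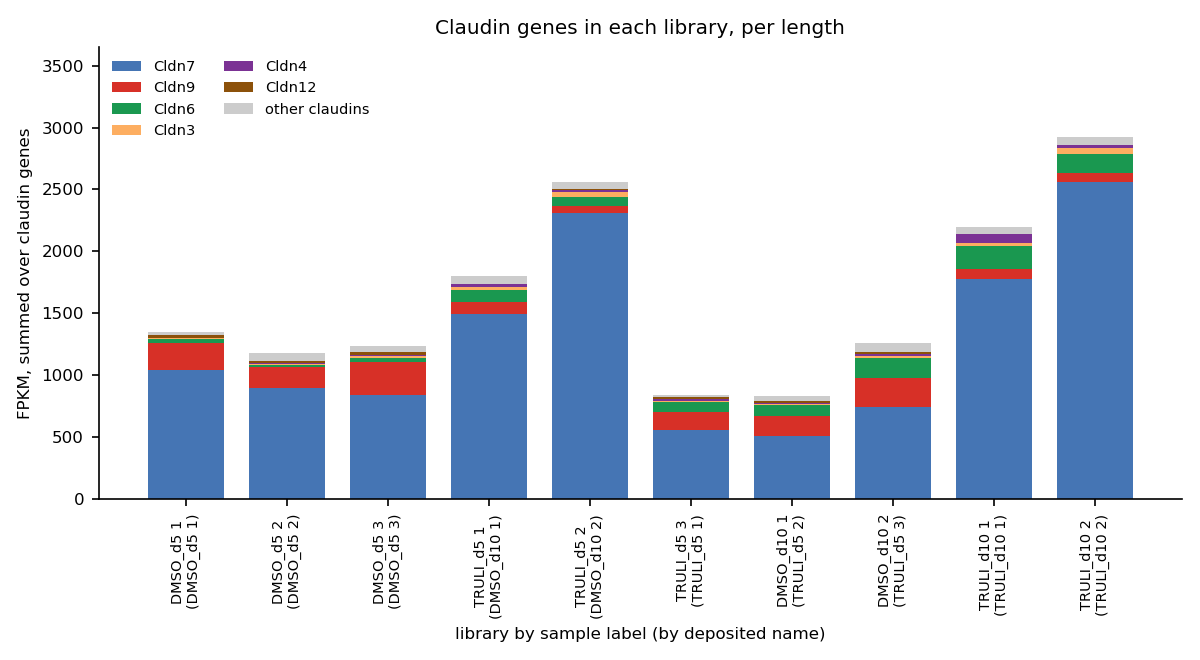
Stacked bars give the FPKM of each claudin in each of the 10 libraries, with the deposited name in brackets under the label. Cldn7 forms most of every bar, and Cldn9 takes a larger part in the 6 libraries with a Cldn7 to Cldn9 ratio of 5.11 or less.

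Effective length itself differed between libraries, which bears on FPKM and not on CPM. The longest over the shortest was 2.66 for Cldn7, 2.56 for Ocln, 1.59 for Tjp1 and at most 1.02 for the 5 claudins other than Cldn7, with Marveld2 in between at 1972 to 2457 bases. For Cldn7 it was 386, 485 and 694 bases in DMSO_d5, 1024, 1025 and 585 bases in the libraries labelled TRULI_d5, 573 and 862 bases in those labelled DMSO_d10, and 1010 and 1027 bases in TRULI_d10. It was shorter in each library with a high mt-Rnr2 share, and the reason was not tested. Ocln ranged from 1492 to 3821 bases and Tjp1 from 3831 to 6099 bases. With 1 length per gene for all libraries, an alternative chosen after seeing the data, the Cldn7 share of claudin FPKM ran from 53.5% to 92.3%. The ratio of Cldn7 to Cldn9 was then 2.29 to 3.55 in the 6 libraries rich in mt-Rnr2 and 20.2 to 52.8 in the other 4. Mean FPKM in DMSO_d5 became 609 ± 124 for Cldn7, 46.1 ± 4.52 for Ocln and 38.9 ± 6.63 for Tjp1, with the order of the members unchanged. In TRULI_d10 Tjp1 passed Cldn4 (50.3 and 49 FPKM) and Ocln passed Marveld2 (25.4 and 23.2 FPKM). The comparisons below rest on counts and use no length.

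**Figure D2:**
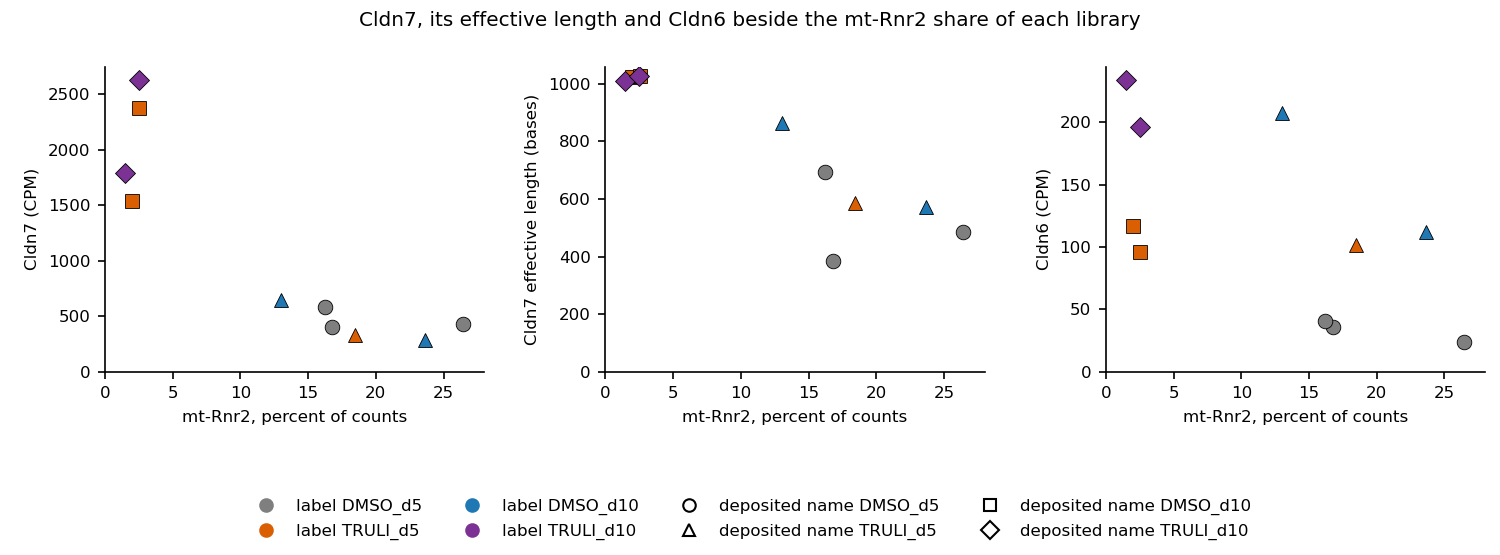
Points are the 10 libraries, coloured by label and shaped by deposited name, with the mt-Rnr2 percentage of counts on each horizontal axis and Cldn7 CPM, Cldn7 effective length in bases, or Cldn6 CPM on the vertical axes. The 4 libraries at or under 2.53% mt-Rnr2 hold at least 1540 CPM of Cldn7, the other 6 at most 645 CPM, whereas Cldn6 is lowest in DMSO_d5.

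Claudin-4 is a barrier-forming claudin of many epithelia. Its RNA stood at 4.39, 8.54 and 10.4 CPM in DMSO_d5, 31.1, 28 and 27.6 CPM in the libraries labelled TRULI_d5, 20.4 and 24.2 CPM in those labelled DMSO_d10, and 115 and 40.5 CPM in TRULI_d10. Every DMSO_d5 library lay under each of the other 7, whichever way those are grouped, and TRULI_d10 replicate 1 was the highest by a wide margin. Fewer cells of a type and less RNA per cell cannot be told apart in such bulk libraries, here and throughout. Fold changes are TRULI over control on the log2 scale, and p-values come from the quasi-likelihood test of edgeR, adjusted over all protein-coding genes tested by the method of Benjamini and Hochberg (edgeR adjusted p). To be called changed, a gene had to more than double or fall below 0.5 times its control, with adjusted p under 0.05. The 2 groups compared did not overlap in 1946 of 10580 genes tested at 5 days by label and 2359 of 10984 by deposited name. After recovery the numbers were 6666 of 11469 and 3115 of 10845, the background for the statements on overlap below. At 5 days the log2 fold change of Cldn4 was 1.90 by label (SE 0.45, edgeR adjusted p = 0.328) and 1.62 by deposited name (SE 0.37, edgeR adjusted p = 0.040), the latter a call, with TRULI above control in all 3 libraries under both groupings. After recovery it was 1.81 by label (SE 0.56, edgeR adjusted p = 0.110) and 1.41 by deposited name (SE 0.61, edgeR adjusted p = 1.0). Without TRULI_d10 replicate 1 these 2 values were 0.84 and 0.45.

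Claudin-6 is best known from embryonic epithelia and pluripotent cells. It stood at 35.6, 23.7 and 40.4 CPM in DMSO_d5, 117, 96.3 and 102 CPM in the libraries labelled TRULI_d5, 112 and 207 CPM in those labelled DMSO_d10, and 234 and 196 CPM in TRULI_d10. The DMSO_d5 libraries again formed the low group, with no overlap with the other 7 libraries. At 5 days its log2 fold change was 1.68 by label (SE 0.34, edgeR adjusted p = 0.328) and 2.10 by deposited name (SE 0.32, edgeR adjusted p = 0.00859), a call. After recovery the groups overlapped by label, at 0.43 (SE 0.40), and not by deposited name, at 1.03 (SE 0.40, edgeR adjusted p = 1.0). The value by label was 0.03 without the library labelled DMSO_d10 replicate 1 and 0.97 without replicate 2.

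Claudin-7 is a claudin that epithelial cells also carry along their lateral membranes. It stood at 402, 435 and 583 CPM in DMSO_d5, 1540, 2370 and 329 CPM in the libraries labelled TRULI_d5, 290 and 645 CPM in those labelled DMSO_d10, and 1790 and 2630 CPM in TRULI_d10. The libraries labelled TRULI_d5 disagreed among themselves, since replicate 3 lay under every DMSO_d5 library. By deposited name the TRULI_d5 libraries (329, 290 and 645 CPM) overlapped DMSO_d5, and the DMSO_d10 libraries (1540 and 2370 CPM) overlapped TRULI_d10. Accordingly the log2 fold change at 5 days was 1.59 by label (SE 0.63, edgeR adjusted p = 0.349) and -0.15 by deposited name (SE 0.31). After recovery it was 2.24 by label (SE 0.48, edgeR adjusted p = 0.0571) and 0.19 by deposited name (SE 0.36). The recovery value by label was 1.75 without the library labelled DMSO_d10 replicate 1 and 2.95 without replicate 2.

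Claudin-3, close in sequence to claudin-4 and likewise barrier-forming, stood at 6.79, 7.56 and 17.6 CPM in DMSO_d5, 28.6, 39.1 and 6.83 CPM in the libraries labelled TRULI_d5, 9.45 and 17.9 CPM in those labelled DMSO_d10, and 26.1 and 43.3 CPM in TRULI_d10. The 4 highest libraries were the 4 that were highest for Cldn7. Its log2 fold change at 5 days was 1.22 by label (SE 0.67) and 0.11 by deposited name (SE 0.50). Its value after recovery was 1.34 by label (SE 0.56) and 0.04 by deposited name (SE 0.56). An antisense gene, Wbscr25, overlaps Cldn3 by 40 bases, and whether the counting used strand is not given in the sources used here, so reads of the overlap cannot be told apart.

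Cldn4 and Cldn3 are neighbours on chromosome 5 of GRCm38 (134945119 to 134946934, minus strand, and 134986214 to 134987472, plus strand), transcribed away from each other with 39279 bases and 0 protein-coding genes between them. Cldn6 (23679249 to 23682446, plus strand) and Cldn9 (23682584 to 23684026, minus strand) lie tail to tail on chromosome 17, 137 bases apart. Cldn7 lies on chromosome 11 (69964779 to 69967885, plus strand). Over the 10 libraries Cldn3 correlated at 0.63 with its neighbour Cldn4 and at 0.95 with Cldn7 (Pearson, log2(CPM + 1)). Both Cldn3 and Cldn4 were higher in TRULI_d10 than in DMSO_d5, whereas Cldn9 ran opposite to Cldn6 there.

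Promoter windows, from 250 bases before to 50 bases after each RefSeq transcription start (GRCm38.p6), were matched by symbol for 8 of the 9 members, all but Cldn9, in 13 windows. Of the 4 claudins that were higher in TRULI_d10 than in DMSO_d5, the pair Cldn4 and Cldn6 lay above DMSO_d5 in all other libraries. The pair Cldn3 and Cldn7 was highest in the same 4 libraries. Printed here are the windows of both pairs, to show what each pair has upstream. They are chr5:134985964-134986263 (plus strand) for Cldn3, chr5:134946885-134947184 (minus strand) for Cldn4, chr17:23679115-23679414 (plus strand) for Cldn6, and chr11:69964529-69964828 and chr11:69965171-69965470 (both plus strand) for the 2 starts of Cldn7. Each is written in the direction of transcription. Capitals mark matches, on either strand, to the E-box bound by Snail and Zeb, which reads CAGGTG, to the motif bound by Tead factors, which reads GGAATG, and to the box bound by Sp factors, which reads GGGCGG.
Cldn3: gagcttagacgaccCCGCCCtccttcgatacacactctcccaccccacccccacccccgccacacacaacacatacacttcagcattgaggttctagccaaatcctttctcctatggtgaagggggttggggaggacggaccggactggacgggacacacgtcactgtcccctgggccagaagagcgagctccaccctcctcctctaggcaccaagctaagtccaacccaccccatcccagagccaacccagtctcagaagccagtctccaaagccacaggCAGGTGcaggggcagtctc
Cldn4: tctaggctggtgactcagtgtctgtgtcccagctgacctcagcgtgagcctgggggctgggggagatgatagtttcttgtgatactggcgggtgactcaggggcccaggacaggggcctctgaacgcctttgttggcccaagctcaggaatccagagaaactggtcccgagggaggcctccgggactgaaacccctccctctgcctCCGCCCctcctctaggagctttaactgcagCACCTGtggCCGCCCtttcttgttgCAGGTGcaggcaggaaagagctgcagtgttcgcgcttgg
Cldn6: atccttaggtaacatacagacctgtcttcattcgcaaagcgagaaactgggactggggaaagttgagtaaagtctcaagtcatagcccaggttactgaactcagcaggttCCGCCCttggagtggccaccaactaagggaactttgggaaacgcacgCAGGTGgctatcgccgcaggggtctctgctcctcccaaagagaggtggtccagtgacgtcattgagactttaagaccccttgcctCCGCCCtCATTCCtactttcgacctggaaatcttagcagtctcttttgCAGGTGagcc
Cldn7 upstream start: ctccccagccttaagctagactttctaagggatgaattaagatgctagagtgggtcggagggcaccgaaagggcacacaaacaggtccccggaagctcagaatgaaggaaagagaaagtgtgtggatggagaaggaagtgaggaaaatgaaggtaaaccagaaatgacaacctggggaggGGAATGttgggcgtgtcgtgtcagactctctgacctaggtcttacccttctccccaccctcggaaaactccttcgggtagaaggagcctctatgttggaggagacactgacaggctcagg
Cldn7 downstream start: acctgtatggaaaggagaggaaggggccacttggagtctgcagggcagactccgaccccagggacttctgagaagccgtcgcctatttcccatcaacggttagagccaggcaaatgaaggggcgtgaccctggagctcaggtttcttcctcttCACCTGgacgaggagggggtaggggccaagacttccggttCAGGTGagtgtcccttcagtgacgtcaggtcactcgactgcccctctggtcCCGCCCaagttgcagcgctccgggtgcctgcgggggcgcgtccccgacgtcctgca
The grainyhead motif AACCGGTT was searched as well and has no match in these windows. In the printed windows no base belongs to matches of different motifs.

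Among the 13 member windows, CAGGTG was present in 8, against 20.2% of all 32851 promoter windows of the same length. Those 8 belong to 6 members, Cldn3, Cldn4, Cldn6, Cldn7, Ocln and Marveld2. RNA of the Snail and Zeb factors was near the floor of 0.48 to 1.22 CPM. Means over the 10 libraries were 0.736 CPM for Snai1, 1.79 for Snai2, 0.688 for Zeb1 and 0.673 for Zeb2. The highest single value was 5.22 CPM, for Zeb2 in TRULI_d10 replicate 1. Binding by these factors was not tested. The windows of Ocln overlap each other, as do those of Marveld2 and of Cldn12, so that the single CAGGTG of Marveld2 and one of Ocln are each counted in 2 windows, as is the GGGCGG of Marveld2 and of Cldn12. GGAATG was present in 2 windows, those of Cldn6 and the upstream start of Cldn7, against 14.7% of all windows. GGGCGG was present in 11, with at least 1 window for each of the 8 members, against 35.7%. Member windows held from 45.3% to 68.0% G and C, beside a median of 52.7% over all windows. Only those of Cldn6, the upstream start of Cldn7 and the most upstream start of Cldn12 lay under that median. The shares over all windows were not matched for base composition. AACCGGTT was present in 0, against 0.146%. A match is a description, not a site or a cause, and a missing match says only that these letters are not in the window. Neither pair of claudins had a motif of its own, since CAGGTG and GGGCGG were found in windows of all 4 and GGAATG in 1 claudin of each pair.

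**Figure D3:**
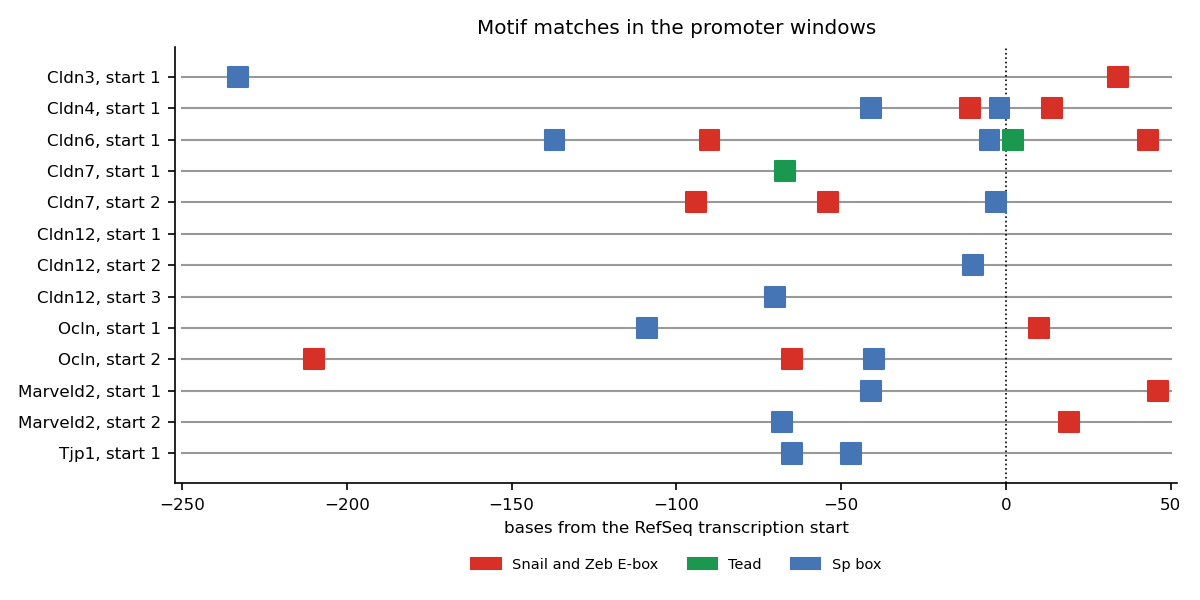
Lines are the 13 promoter windows of the 8 members, drawn in bases from the RefSeq transcription start at the dotted line, and blocks are motif matches on either strand. CAGGTG blocks appear in 8 windows and GGAATG blocks in 2, one of them across the start of Cldn6.

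The claudins that were lower in TRULI_d10 are Cldn9 and Cldn12. Claudin-9 is needed for hearing, and without it hair cells die. It stood at 271, 212 and 327 CPM in DMSO_d5, 117, 69.3 and 172 CPM in the libraries labelled TRULI_d5, 195 and 281 CPM in those labelled DMSO_d10, and 93.9 and 94.6 CPM in TRULI_d10. All libraries labelled TRULI_d5 lay under all of DMSO_d5, and both TRULI_d10 libraries under both labelled DMSO_d10, but neither separation was present by deposited name. By label, a separation in either direction was found in 1946 of 10580 genes tested at 5 days and 6666 of 11469 after recovery. At 5 days the log2 fold change of Cldn9 was -1.16 by label (SE 0.40, edgeR adjusted p = 0.334) and -0.30 by deposited name (SE 0.26). After recovery it was -1.33 by label (SE 0.36, edgeR adjusted p = 0.0852) and 0.03 by deposited name (SE 0.46).

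Claudin-12 is unusual among claudins in lacking the tail that binds ZO proteins. It stood at 81.1, 56.8 and 67.4 CPM in DMSO_d5, 12.5, 24.8 and 58.6 CPM in the libraries labelled TRULI_d5, 38.3 and 59.8 CPM in those labelled DMSO_d10, and 12.3 and 16.3 CPM in TRULI_d10. The low libraries were the 4 in which Cldn7 was high. At 5 days its log2 fold change was -1.08 by label (SE 0.53) and -0.37 by deposited name (SE 0.25). With recovery it was -1.78 by label (SE 0.48, edgeR adjusted p = 0.0851) and -0.37 by deposited name (SE 0.70). The value at 5 days by label was -1.90 without the library labelled TRULI_d5 replicate 3 and -0.67 without replicate 1.

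Occludin was called in no comparison that kept all its libraries. It stood at 156, 165 and 136 CPM in DMSO_d5, 80.9, 82.6 and 114 CPM in the libraries labelled TRULI_d5, 106 and 102 CPM in those labelled DMSO_d10, and 71.1 and 96.0 CPM in TRULI_d10. All 3 DMSO_d5 libraries lay above the other 7. Its log2 fold change at 5 days was -0.70 by label (SE 0.31, edgeR adjusted p = 0.367) and -0.48 by deposited name (SE 0.20, edgeR adjusted p = 0.246). The change after recovery was -0.31 by label (SE 0.36) and 0.04 by deposited name (SE 0.45).

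Tricellulin RNA had fold changes of the same sign under both groupings, while the separation of libraries differed between them. Marveld2 stood at 41.6, 32.9 and 32.2 CPM in DMSO_d5, 46.3, 17.6 and 19.7 CPM in the libraries labelled TRULI_d5, 22.1 and 31.4 CPM in those labelled DMSO_d10, and 64 and 34.2 CPM in TRULI_d10. The highest value was in TRULI_d10 replicate 1. DMSO_d5 overlapped TRULI_d5 by label and lay above it by deposited name, while after recovery TRULI_d10 lay above DMSO_d10 by label and overlapped it by deposited name. At 5 days its log2 fold change was -0.33 by label (SE 0.45) and -0.51 by deposited name (SE 0.28), and after recovery 0.88 (SE 0.49) and 0.64 (SE 0.64). The recovery value by label was 0.33 without TRULI_d10 replicate 1, and Marveld2 was called higher without replicate 2 (edgeR adjusted p = 0.0482). By deposited name it lay between 0.08 and 1.48 when 1 library was left out. Ocln and Marveld2 are neighbours on chromosome 13, on the same strand with 43238 bases between them, and an snRNA gene, Gm24261, lies within Marveld2 on the opposite strand.

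ZO-1, the scaffold that binds most claudins and occludin, varied least. Tjp1 stood at 243, 173 and 229 CPM in DMSO_d5, 240, 319 and 345 CPM in the libraries labelled TRULI_d5, 336 and 326 CPM in those labelled DMSO_d10, and 299 and 258 CPM in TRULI_d10. Its highest library was 1.99 times its lowest, the smallest ratio among the members. At 5 days the groups overlapped by label, at a log2 fold change of 0.51 (SE 0.33), and did not by deposited name, at 0.66 (SE 0.21, edgeR adjusted p = 0.134). After recovery it was -0.24 by label (SE 0.32) and 0.01 by deposited name (SE 0.37), the last with the other sign under the size factors of DESeq2. The genes Gm44794 and Gm44792 overlap Tjp1 on the same strand by 411 and 1628 bases, and Gm44795 on the other strand by 319 bases.

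**Figure D4:**
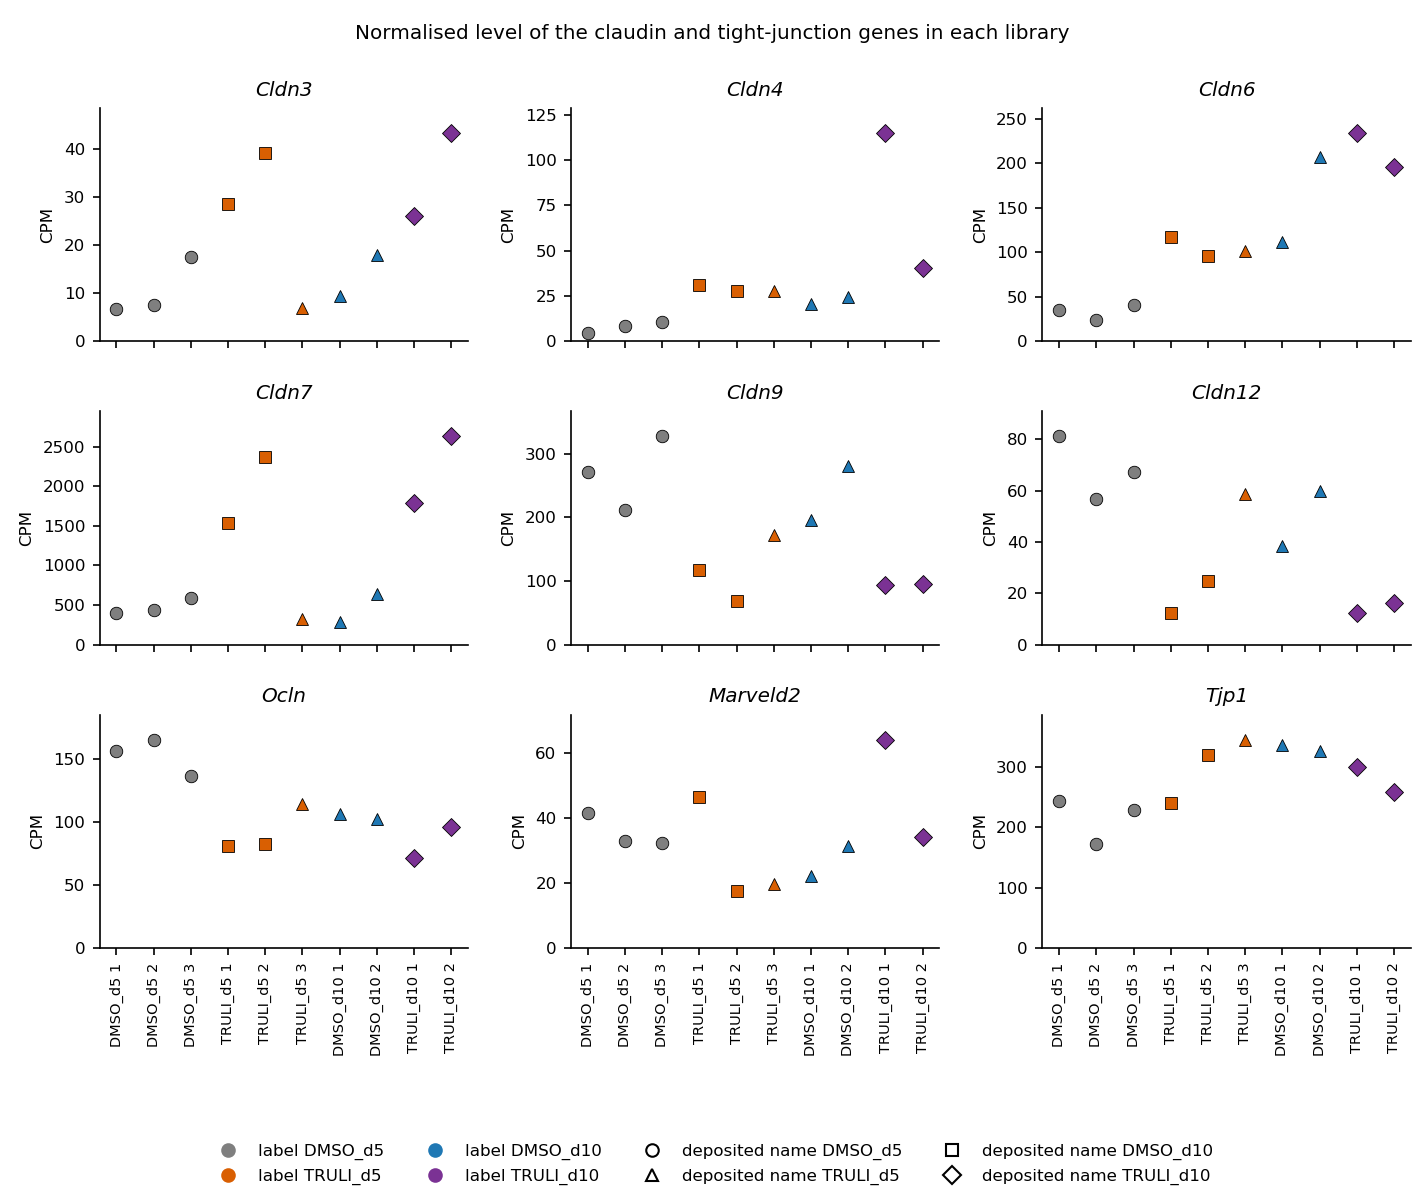
Each panel shows 1 gene, with a point for each of the 10 libraries placed by label on the horizontal axis, coloured by label and shaped by deposited name, and CPM on the vertical axis from 0. Cldn4 and Cldn6 are lowest and Ocln highest in the 3 DMSO_d5 libraries, while Cldn3 and Cldn7 are high and Cldn9 and Cldn12 low in TRULI_d10 and the pair labelled TRULI_d5 replicates 1 and 2.

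Counting calls, the comparison at 5 days by label asked what the compound changes while present. Of 10580 protein-coding genes tested, 1 was called, which is 0.00945%, and of the 9 members edgeR called 0. With an unadjusted p under 0.05 there were 4 members (Cldn4, Cldn6, Cldn7 and Cldn9) beside 13.7% of all genes tested, and DESeq2 called 2, Cldn4 and Cldn6, beside 240 of 10182 genes. The median log2 fold change was 0.51 over the members and 0.04 over all genes tested. Without the library labelled TRULI_d5 replicate 3, 5 members were called, Cldn4, Cldn6 and Cldn7 higher and Cldn9 and Cldn12 lower, beside 2019 of all genes. Leaving out any other library gave 0 members and at most 1 gene.

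By deposited name, 340 of 10984 genes tested were called at 5 days (3.1%), of which 231 were higher (2.1%), and 2 of the 9 members were called, Cldn4 and Cldn6, both higher. The replicate number as a block moved the count of all genes to 675 and kept the same 2 members, with an edgeR adjusted p of 0.012 for Cldn4. The fits that left out a library used no block. The median over the members was -0.15, against 0.02 over all genes tested. Each of the 6 libraries mattered for Cldn4, which was not called when any of them was left out, and its edgeR or DESeq2 adjusted p ranged from 0.0018 to 0.148 over all alternatives. Cldn6 lost its call without DMSO_d5 replicate 2 (edgeR adjusted p = 0.0686, with a range over all alternatives from 4.57e-12), when 0 members and 51 genes were called. The count of all genes was 144 without DMSO_d5 replicate 3 and 143 without the library named TRULI_d5 replicate 2. Without the disputed libraries, an alternative chosen after seeing the data, 3 DMSO_d5 libraries faced 1 TRULI_d5 library that was assumed to vary as they did. Then edgeR called 127 of 11576 genes and 0 members, with log2 fold changes of 1.80 for Cldn4 and 1.62 for Cldn6 (edgeR adjusted p = 0.145 and 0.0613).

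After recovery, the comparison by label asked what remains once the compound is withdrawn. Of 11469 genes tested 226 were called, 1.97%, and edgeR called 0 of the 9 members. Their unadjusted p was under 0.05 in 5 cases (Cldn3, Cldn4, Cldn7, Cldn9 and Cldn12), beside 24.6% of all genes tested. Among 1396 genes DESeq2 called 4 members, Cldn4 and Cldn7 higher and Cldn9 and Cldn12 lower. The median was 0.43 over the members and 0.01 over all genes tested. With the replicate number as a block, edgeR called 3 members (Cldn7, Cldn9 and Cldn12) beside 1210 genes, but these numbers were not taken as pairs. Leaving out TRULI_d10 replicate 1 gave 4 called members and 2919 genes, and leaving out TRULI_d10 replicate 2 gave 5 members and 2217 genes, with the lone TRULI_d10 library assumed to vary like the others. Without the library labelled DMSO_d10 replicate 1 or 2 there were 0 called members, beside 3 and 13 genes.

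By deposited name, 0 of 10845 genes tested were called after recovery, 0.0%, and edgeR called 0 members. An unadjusted p under 0.05 was found for 490 genes, 2 of them members (Cldn4 and Cldn6), and DESeq2 called 0 members and 46 genes. The median was 0.04 over the members and 0.01 over all genes tested, and leaving out any library left both counts at 0.

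The contrast free of the conflict, TRULI_d10 against DMSO_d5, gave the most calls, and it shares its DMSO_d5 libraries with the comparisons at 5 days. Of 11112 genes tested, 2196 were called (19.8%), 1223 higher (11%) and 973 lower (8.76%). Among the 9 members 6 were called, 4 higher and 2 lower. The log2 fold change was 3.29 for Cldn4 (SE 0.53, edgeR adjusted p = 0.00846), 2.69 for Cldn6 (SE 0.32, edgeR adjusted p = 0.00410) and 2.22 for Cldn7 (SE 0.29, edgeR adjusted p = 0.00476). Cldn3 rose less, at 1.68 (SE 0.51, edgeR adjusted p = 0.0490). Cldn12 fell by 2.26 (SE 0.36, edgeR adjusted p = 0.00810) and Cldn9 fell by 1.52 (SE 0.29, edgeR adjusted p = 0.0130). Without TRULI_d10 replicate 1 the value of Cldn4 was 2.40, and it ranged up to 3.82 without replicate 2. In each of these 6 genes both TRULI_d10 libraries lay beyond all 3 DMSO_d5 libraries, as they did in 5899 of the 11112 genes tested.

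The remaining members missed the threshold, with log2 fold changes of -0.87 for Ocln (SE 0.29, edgeR adjusted p = 0.061), 0.47 for Marveld2 (SE 0.37) and 0.37 for Tjp1 (SE 0.27). The median was 0.47 over the members and 0.01 over all genes tested. When DMSO_d5 replicate 1 or 2 was left out Cldn3 lost its call, without DMSO_d5 replicate 3 both Cldn3 and Cldn9 did, and without TRULI_d10 replicate 2 Cldn3 lost its call and Ocln gained one. The adjusted p of Cldn3 ranged from 0.00400 to 0.169 over the alternatives, that of Cldn9 from 2.28e-05 to 0.0751 and that of Ocln from 0.0258 to 0.218. The count of all called genes was 622, 283 and 767 without DMSO_d5 replicates 1, 2 and 3, and 3342 without TRULI_d10 replicate 1. With all 10 libraries in one fit, grouped by label, 11 genes were called and 2 of them were members, Cldn4 and Cldn6. The mt-Rnr2 share moved with this contrast, as did 4 of 8 supporting-cell markers, Lfng among them. So did the summed Schwann-cell markers (118 and 60.6 CPM against at most 38.2 CPM) and Col1a2. The hair-cell markers did in TRULI_d10 replicate 1 (791 CPM) and not in replicate 2 (119 CPM). Their part in it was not tested.

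**Figure D5:**
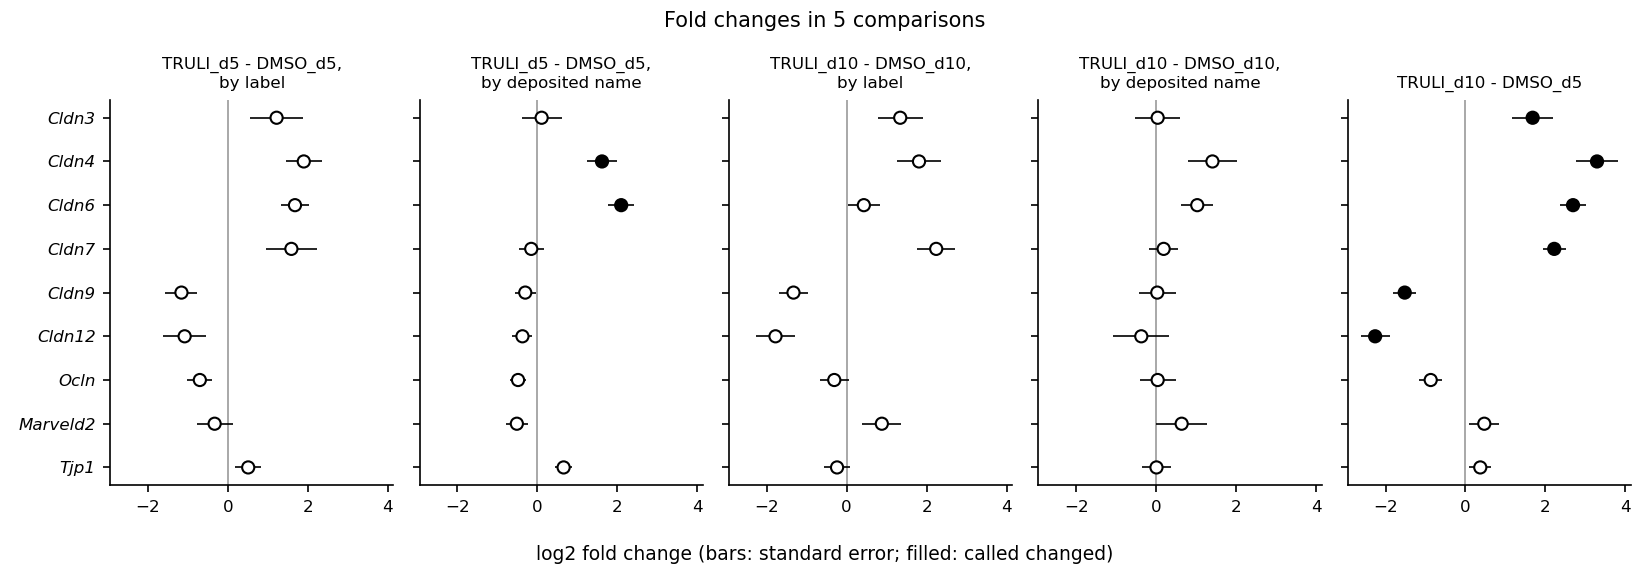
Points are log2 fold changes of the 9 genes, TRULI minus control, in each of 5 comparisons, with bars for the standard error and filled points for genes called changed. Filled points number 0 and 2 at 5 days by label and by deposited name, 0 after recovery in both groupings, and 6 in TRULI_d10 against DMSO_d5.

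Whether the effect of TRULI differed between 5 days and recovery was tested with all libraries in one fit. By label edgeR called 0 of 11918 genes, 0.0%, and 0 members, with 792 genes and 1 member at an unadjusted p under 0.05, and DESeq2 called 41 genes and 0 members. That member was Cldn6, whose effect was smaller after recovery by 1.23 on the log2 scale as fitted (a difference of -1.23, SE 0.52, edgeR adjusted p = 0.721). By deposited name edgeR also called 0 of 11918 genes, 0.0%, and 0 members, with 1110 genes and 0 members at an unadjusted p under 0.05, and DESeq2 called 79 genes and 0 members. Without the library named DMSO_d10 replicate 1 the count of genes by deposited name was 88, and without TRULI_d10 replicates 1 and 2 it was 7 and 3, with 0 members in each. By label it was 1 without the library labelled TRULI_d5 replicate 2. The difference for Cldn6 by deposited name was -1.07 (SE 0.50, edgeR adjusted p = 0.536).

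Other genes of the junction were taken from lists, and their counts are given for the same 5 comparisons in the order 5 days by label, 5 days by deposited name, recovery by label, recovery by deposited name, and TRULI_d10 against DMSO_d5. Over all genes tested an unadjusted p under 0.05 was found for 13.7%, 16.4%, 24.6%, 4.52% and 36.9% in that order, and DESeq2 called 240, 565, 1396, 46 and 2740 genes, the background for the counts below. Among the 27 other claudins 5 had enough counts to be tested, and the highest mean FPKM were 21.3 for Cldn14 and 14.3 for Cldn10. edgeR called 0 of them in each comparison, as did DESeq2, with 0, 0, 1, 0 and 1 at an unadjusted p under 0.05. Their median log2 fold change in TRULI_d10 against DMSO_d5 was 0.54, against 0.01 over all genes tested. Of 10 other membrane proteins of tight junctions 7 were tested, led by Cxadr at 115 and Ildr1, a partner of tricellulin at cell corners, at 72.1 mean FPKM. edgeR called 0 in each comparison, with 0, 3, 2, 0 and 2 at an unadjusted p under 0.05, and DESeq2 called 0, 1, 1, 0 and 0. Their median in TRULI_d10 against DMSO_d5 was 0.07.

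Scaffolds and polarity proteins numbered 20, led by Lin7c at 51.5 and Ybx3 at 38.0 mean FPKM. edgeR called 4 of the 19 tested in TRULI_d10 against DMSO_d5, 2 higher and 2 lower, where 19.8% of all genes tested were called, and the median was 0.0. In the other 4 comparisons edgeR called 0, with 2, 1, 6 and 0 of 20 at an unadjusted p under 0.05, and DESeq2 called 1, 0, 2 and 0. Crb3, an apical polarity protein, stood at 4.39, 4.60 and 6.69 CPM in DMSO_d5, 22.8, 81.2 and 6.04 CPM in the libraries labelled TRULI_d5, 7.21 and 19.7 CPM in those labelled DMSO_d10, and 51.5 and 57.4 CPM in TRULI_d10. Its 4 highest libraries were the 4 with most Cldn7. The log2 fold change in TRULI_d10 against DMSO_d5 was 3.35 for Crb3 (SE 0.39) and 1.09 for the polarity kinase Prkci (SE 0.29), while the scaffold gene Patj, among those called lower, fell by 1.09 (SE 0.33). Crb3 kept its call without any single library and lost it with all 10 libraries in one fit (edgeR adjusted p = 0.0634), as did every other list gene called in this contrast. Prkci lost it without each DMSO_d5 library, and Patj lost its call without each DMSO_d5 library, without TRULI_d10 replicate 2, with the size factors of DESeq2 and without the filter on low counts.

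Transcription factors of epithelial junction genes numbered 13, led by Elf3 at 107 and Grhl2 at 15.7 mean FPKM. In TRULI_d10 against DMSO_d5, 3 of the 6 tested were called, 2 higher and 1 lower, where 11% of all genes tested were called higher and 8.76% lower, and the median was 0.43. In the other 4 comparisons edgeR called 0, with 2, 1, 4 and 0 at an unadjusted p under 0.05, and DESeq2 called 1, 1, 1 and 0. Elf3 stood at 70.7, 75.2 and 144 CPM in DMSO_d5, 360, 234 and 64.6 CPM in the libraries labelled TRULI_d5, 47.5 and 97.2 CPM in those labelled DMSO_d10, and 259 and 458 CPM in TRULI_d10. Grhl1 stood at 34, 39.8 and 33.7 CPM, 8.92, 8.98 and 22.3 CPM, 16.7 and 11.4 CPM, and 4.87 and 1.42 CPM in the same order. Elf3 was thus high in the 4 libraries rich in Cldn7, and Grhl1 was highest in DMSO_d5. The log2 fold changes were 1.88 for Elf3 (SE 0.39), 2.70 for Ovol1 (SE 0.70) and -3.48 for Grhl1 (SE 0.58). Over the alternatives they ranged from 1.40 to 2.33, from 1.24 to 3.48 and from -4.57 to -2.89. Elf3 lost its call without DMSO_d5 replicate 1 or 2, Grhl1 without DMSO_d5 replicate 2, and Ovol1 without each of the DMSO_d5 libraries and without TRULI_d10 replicate 2.

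Of the marker lists, supporting cells had 4 of 8 genes called lower in TRULI_d10 against DMSO_d5, where 8.76% of all genes tested were called lower, and their median was -0.77. Lfng fell by 2.67 (SE 0.31), Otogl by a log2 fold change of -1.81 (SE 0.36), Otog of -1.20 (SE 0.36) and Sox2 of -1.15 (SE 0.34). Lfng kept its call without any single library and lost it with all 10 libraries in one fit (edgeR adjusted p = 0.0955). Otogl lost its call without each DMSO_d5 library, and Otog and Sox2 lost theirs without each of the 5 libraries. After recovery Lfng was also called by label, at -2.32 (SE 0.44, edgeR adjusted p = 0.0461), and was 0.98 by deposited name (SE 0.61). That call was lost without either library labelled DMSO_d10 and with all 10 libraries in one fit. Col1a2, at 2.50 (SE 0.59), and Mbp, at 1.54 (SE 0.38), were called higher in TRULI_d10 against DMSO_d5. Of 6 mesenchymal markers 2 were tested in this contrast, the other being Pdgfra at -0.31 (SE 0.54), and of 5 Schwann-cell markers Mbp alone was tested. Col1a2 and Mbp lost the call without each DMSO_d5 library, Mbp also without TRULI_d10 replicate 1.

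Hair-cell markers were called 0 times by edgeR in the 5 comparisons, taken in the order above. An unadjusted p under 0.05 was found for 0, 5, 1, 5 and 3 of them, and DESeq2 called 0, 5, 0, 2 and 2. Their median log2 fold change at 5 days was 0.46 by label and 1.34 by deposited name, and after recovery 0.73 by label and 4.14 by deposited name, against at most 0.04 over all genes tested. In TRULI_d10 against DMSO_d5 it was 1.03. The recovery value by deposited name rests on 5 markers, since Myo7a and Gfi1 did not pass the filter on low counts there. The others rest on 7. Myo15 passed that filter through TRULI_d10 (21.4 and 2.03 CPM), with 0.0 and 0.718 CPM in the libraries named DMSO_d10. After recovery by label 5 of the 7 were above 0, while Myo7a (-1.30) and Gfi1 (-2.39) were below it. The paper lists both of these markers among the hair-cell genes that were higher after withdrawal. By deposited name, where Myo7a and Gfi1 were not tested, all 5 tested markers were above 0, from 2.0 for Tmc1 to 5.35 for Myo15. Endothelial and macrophage markers had too few counts for any to be tested. Of 4 dark-cell markers 2 were tested and of 4 melanocyte markers 1, and both edgeR and DESeq2 called 0 of these 3, with 1 dark-cell marker at an unadjusted p under 0.05, at 5 days by deposited name.

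Across the 10 libraries the members fell into patterns that were described by Pearson correlation of log2(CPM + 1). The points share the conflict of labels and the split in mt-Rnr2. Cldn3 and Cldn7 correlated at 0.95, Cldn4 and Cldn6 at 0.87, Cldn9 and Cldn12 at 0.85, and Cldn12 and Ocln at 0.85 (n = 10). Values of this size were not particular to these pairs, since many other genes correlated more strongly with each member. Among the genes compared below, Cldn7 had rank 93 in likeness to Cldn3, and Cldn3 rank 198 for Cldn7. Cldn6 had rank 58 for Cldn4, and Cldn4 rank 32 for Cldn6. Cldn12 had rank 402 for Cldn9, and Ocln rank 238 for Cldn12. The strongest opposition was between Cldn4 and Ocln, at -0.91 (n = 10). Marveld2 correlated with no other member beyond 0.41 in size, the value with Tjp1 being -0.41.

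Among 8264 protein-coding genes with a mean of at least 10 CPM, the genes most like each member over the 10 libraries were taken by the same measure. For Cldn7 they were Erbb3 at 0.992, Gabarap at 0.991 and Zfp36l1 at 0.991. For Cldn3 they were Rab7 at 0.986, Srebf2 at 0.985 and Clstn1 at 0.984. For Cldn4 they were Wdr25 at 0.975, Fbxw5 at 0.961 and Vsig10 at 0.951, and for Cldn6 Polk at 0.975, Etfbkmt at 0.945 and Igfbp5 at 0.934. None of these sets shared a gene. Each holds only 3 of 8264 genes, so this does not show that the members moved apart, and Cldn3 and Cldn7 correlated at 0.95. Cldn9 was most like Vps9d1 at 0.967, Col11a1 at 0.967 and Xrcc1 at 0.966, and Cldn12 most like Rit1 at 0.970, Use1 at 0.958 and Rpn2 at 0.958. The nearest to Ocln were Ntn4 at 0.972, Rab5a at 0.969 and Rnf139 at 0.964. Marveld2 had Slc25a33 at 0.938, Cpeb4 at 0.920 and Kif13a at 0.917, and Tjp1 had Gria3 at 0.917, Fn1 at 0.898 and Chst15 at 0.887, the lowest values of the set.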

How the data were processed

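Supporting cells were profiled in 10 libraries. Alignment by the authors used STAR and the mouse genome GRCm38. For each gene the deposited tables hold expected counts and an effective length; the counting program is not given in the sources used here. Labels describe poly(A) selection with one kit and the methods another kit. Symbols and positions came from GENCODE M21 (48349 of 48709 IDs matched).

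Expected counts were rounded and compared with edgeR 4.0.16 (R 4.3.3; quasi-likelihood, filterByExpr, TMM), only the groups compared in each fit. A call needed a change of more than 1 on the log2 scale, and p under 0.05 after Benjamini-Hochberg adjustment, in a protein-coding gene. CPM use TMM factors over all 10 libraries. The smallest chi-square per degree of freedom between replicates was 15.28, so no library was counted as a copy. DESeq2 1.42.0, its size factors, no filter, every biotype, no fold threshold, all libraries in one fit, leaving out each library and a replicate block were alternatives. Replicate numbers of the deposited names paired TRULI_d5 with DMSO_d5 (correlations of deviations 0.393, 0.192 and 0.326). The code was tested on simulated data.

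Members and lists were chosen with earlier results of these data known. Named genes were every member, all but 1 of the list genes called in any of the 5 comparisons, the 2 with the highest mean FPKM in each list of junction genes or factors, the genes of marker lists, and the 3 most correlated with each member.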

Additional observations from a re-analysis of the deposited data

How the results depend on the processing

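The count of called members at 5 days by label was 0. It was 2 with DESeq2, 3 without a filter on low counts and 2 with groups by deposited name, and between 0 and 5 when a library was left out. After recovery by label the count of 0 became 4 with DESeq2 and 4 without a filter, and leaving out a library gave between 0 and 5. By deposited name at 5 days the count of 2 fell to 1 with all 10 libraries in one fit, to between 0 and 1 when a library was left out, and to 0 without the disputed libraries, which leaves 1 TRULI_d5 library. The count of 6 in TRULI_d10 against DMSO_d5 was 2 with all 10 libraries in one fit, and between 4 and 6 with a library left out. The mean summed level of the members in DMSO_d5 moved from 1270 to 1600 CPM when scaled to protein-coding counts, since mt-Rnr2 is not in that total. That scaling moved the median of all genes by -0.17, -0.33 and -0.27 (log2) at 5 days by label, after recovery by label and in TRULI_d10 against DMSO_d5, and changed the sign of no member in these comparisons. After recovery by deposited name it moved the median by 0.06, and the ratio of group means of Tjp1 changed sign. Unless stated, the cause was not tested.

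All called genes at 5 days by label numbered 1, against 240 with DESeq2, 611 without a filter, 2 with all libraries in one fit and 0 to 2019 with a library left out. After recovery by label, 226 became 1396, 1719, 0 and 3 to 2919 in the same order. At 5 days by deposited name, 340 became 565, 876, 103 and 51 to 375, and 127 without the disputed libraries. After recovery by deposited name, 0 became 46 with DESeq2 and 176 without a filter. In TRULI_d10 against DMSO_d5, 2196 became 11 with all libraries in one fit. For the difference of the effects, 0 became 41 with DESeq2 and 204 without a filter by label, and 79 and 280 by deposited name. With a library left out it was 0 to 1 by label and 0 to 88 by deposited name.

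With the replicate block, the labelled comparison after recovery called 3 members (Cldn7, Cldn9 and Cldn12) and 1210 genes, and the others 0 at 5 days by label, 2 at 5 days by deposited name and 0 after recovery by deposited name. Apart from that comparison, where the numbers were not taken as pairs, the block changed no member's call. Correlations of deviations between libraries of the same number were -0.168, 0.0674 and -0.206 at 5 days by label, where no number stood out. With only 2 pairs they were 0.199 by label and 0.18 by deposited name after recovery.

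Directions changed where fold changes were small or groups were redefined. Groups by deposited name gave log2 fold changes of -0.15 for Cldn7 at 5 days and, after recovery, of 0.03 for Cldn9, 0.04 for Ocln, 0.01 for Tjp1 and 0.98 for Lfng. Without the disputed libraries, an alternative chosen after seeing the data, those at 5 days were -0.66 for Cldn3 and -0.52 for Cldn7. Tjp1 after recovery by deposited name was -0.00224 with DESeq2, -0.00242 with its size factors, -0.01 with all 10 libraries in one fit, and from -0.20 to 0.23 with a library left out. Leaving out a library at 5 days by deposited name gave from -0.40 to 0.68 for Cldn3 and from -0.60 to 0.07 for Cldn7. After recovery by deposited name it gave from -0.36 to 0.35 for Cldn3, from -0.10 to 0.54 for Cldn7, from -0.30 to 0.44 for Cldn9, from -0.79 to 0.21 for Cldn12 and from -0.18 to 0.23 for Ocln. In TRULI_d10 against DMSO_d5 it gave from -0.0036 to 0.83 for Marveld2.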

Other observations

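Limits of these values are the conflict between labels and deposited names in 4 of 10 libraries, groups of 2 or 3, and a split in mt-Rnr2 share that runs with 2 patterns of the members. Cldn3 had as few as 17 expected counts in a library and Cldn4 as few as 11, so their lowest levels are the least precise. Levels of RNA say nothing of protein at the junction. Sorted cells were bulk samples, and a minority of reporter-positive cells of another kind was not resolved.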
